A study of Ictidomys tridecemlineatus with 31 samples.

Results

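The genes described here build, bind, crosslink and cut the extracellular matrix of the kidney, and they were followed in the 13-lined ground squirrel (Ictidomys tridecemlineatus) through the seasons and through a torpor-arousal cycle. They were chosen by name alone: collagen, laminin, integrin, matrix metalloproteinase (MMP), TIMP, ADAMTS, lysyl oxidase, fibulin, fibrillin and nidogen symbols, fibronectin (FN1) and the 3 TGF-beta ligands. The rule matched 85 of 12863 rows and gave 84 genes after 1 row was kept per symbol, the row of highest mean. Only FBLN5 had a 2nd row. By function 82 of the 84 belong to the matrix, and the other 2, COL4A3BP (a ceramide transfer protein) and ITGB1BP1 (an adaptor that binds an integrin tail), matched by name only. MMP9 and LOX were not analysed here.

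Fibrillar collagens and fibronectin form the interstitial scaffold, which in kidney is made mostly by fibroblasts and pericytes. Collagen IV, laminins and nidogens form the basement membranes under tubule cells, podocytes and endothelium. Integrins are paired receptors that tie cells to both, MMPs and ADAMTS enzymes cut matrix proteins, and TIMPs inhibit the enzymes. TGF-beta is stored in the matrix in a latent form, some integrins with an alpha V subunit release it, and it drives collagen and fibronectin genes in fibrotic kidney disease.

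Each value came from the kidney of 1 animal, from a captive colony or a commercial supplier. Of the 31 animals 17 were female and 14 male, and their ages are not given in the sources used here. The active animals were SA (summer active, fattening in August) and SpD (spring dark, warm again after their last torpor bout but not yet moved out of the hibernaculum). The hibernating animals were Ent (cooling into torpor), EAr (starting to rewarm), LAr (later in rewarming) and IBA (interbout aroused, warm between torpor bouts). The labels give no drug and no altered gene: body temperature was recorded in all animals, and polyadenylated RNA came from frozen kidney. SA had 5 animals, IBA 5, Ent 5, EAr 5, LAr 6 and SpD 5. IBA, Ent and SpD each had 3 animals in experiment 1 (Illumina TruSeq stranded libraries) and 2 in experiment 2 (Nugen UniversalPlus libraries), whereas SA, EAr and LAr were all in experiment 2.

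The values are batch-corrected regularized log (rlog) values, which are on the log2 scale and are not scaled by gene length, so the levels of different genes are not ranked. A difference of 1 on this scale is a doubling, less the shrinkage that rlog applies to genes of low counts. K113 (LAr) and K137 (SA) stood apart from their groups and were outside the study's own tests, so the values below come from a limma fit of 29 animals unless said otherwise. It was repeated with all 31, and with 28 after K130 (SpD) was also left out. Levels and their means are of the deposited values, whereas differences come from the fit and are adjusted for sex and experiment. Nephron markers were present in every animal, as were fibroblast, smooth muscle, endothelial and macrophage markers. No marker of the adrenal gland, which was collected with the kidney, had values here (0 of 6). The matrix genes varied more between animals than other genes did, with a median residual SD of 0.30 against 0.16 over all genes. On the deposited values, 72 of the 84 reached the authors' minimum of 7 in at least 4 animals of every group, 10 did so in some groups only, and 2 (ADAMTS17 and COL8A2) in none. MMP7 did not reach it in LAr or SpD, TGFB2 not in Ent or SpD, and ITGA9 not in Ent or LAr. ADAMTS12 and COL21A1 did not reach it in IBA. These counts took in K113 and K137. With K113 left out, LAMB3, TGFB2 and COL4A6 also fell short of it in LAr. Calls of these genes that involve those groups are descriptions. In bulk tissue, fewer cells of a type and less RNA per cell cannot be told apart.

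**Figure D1:**
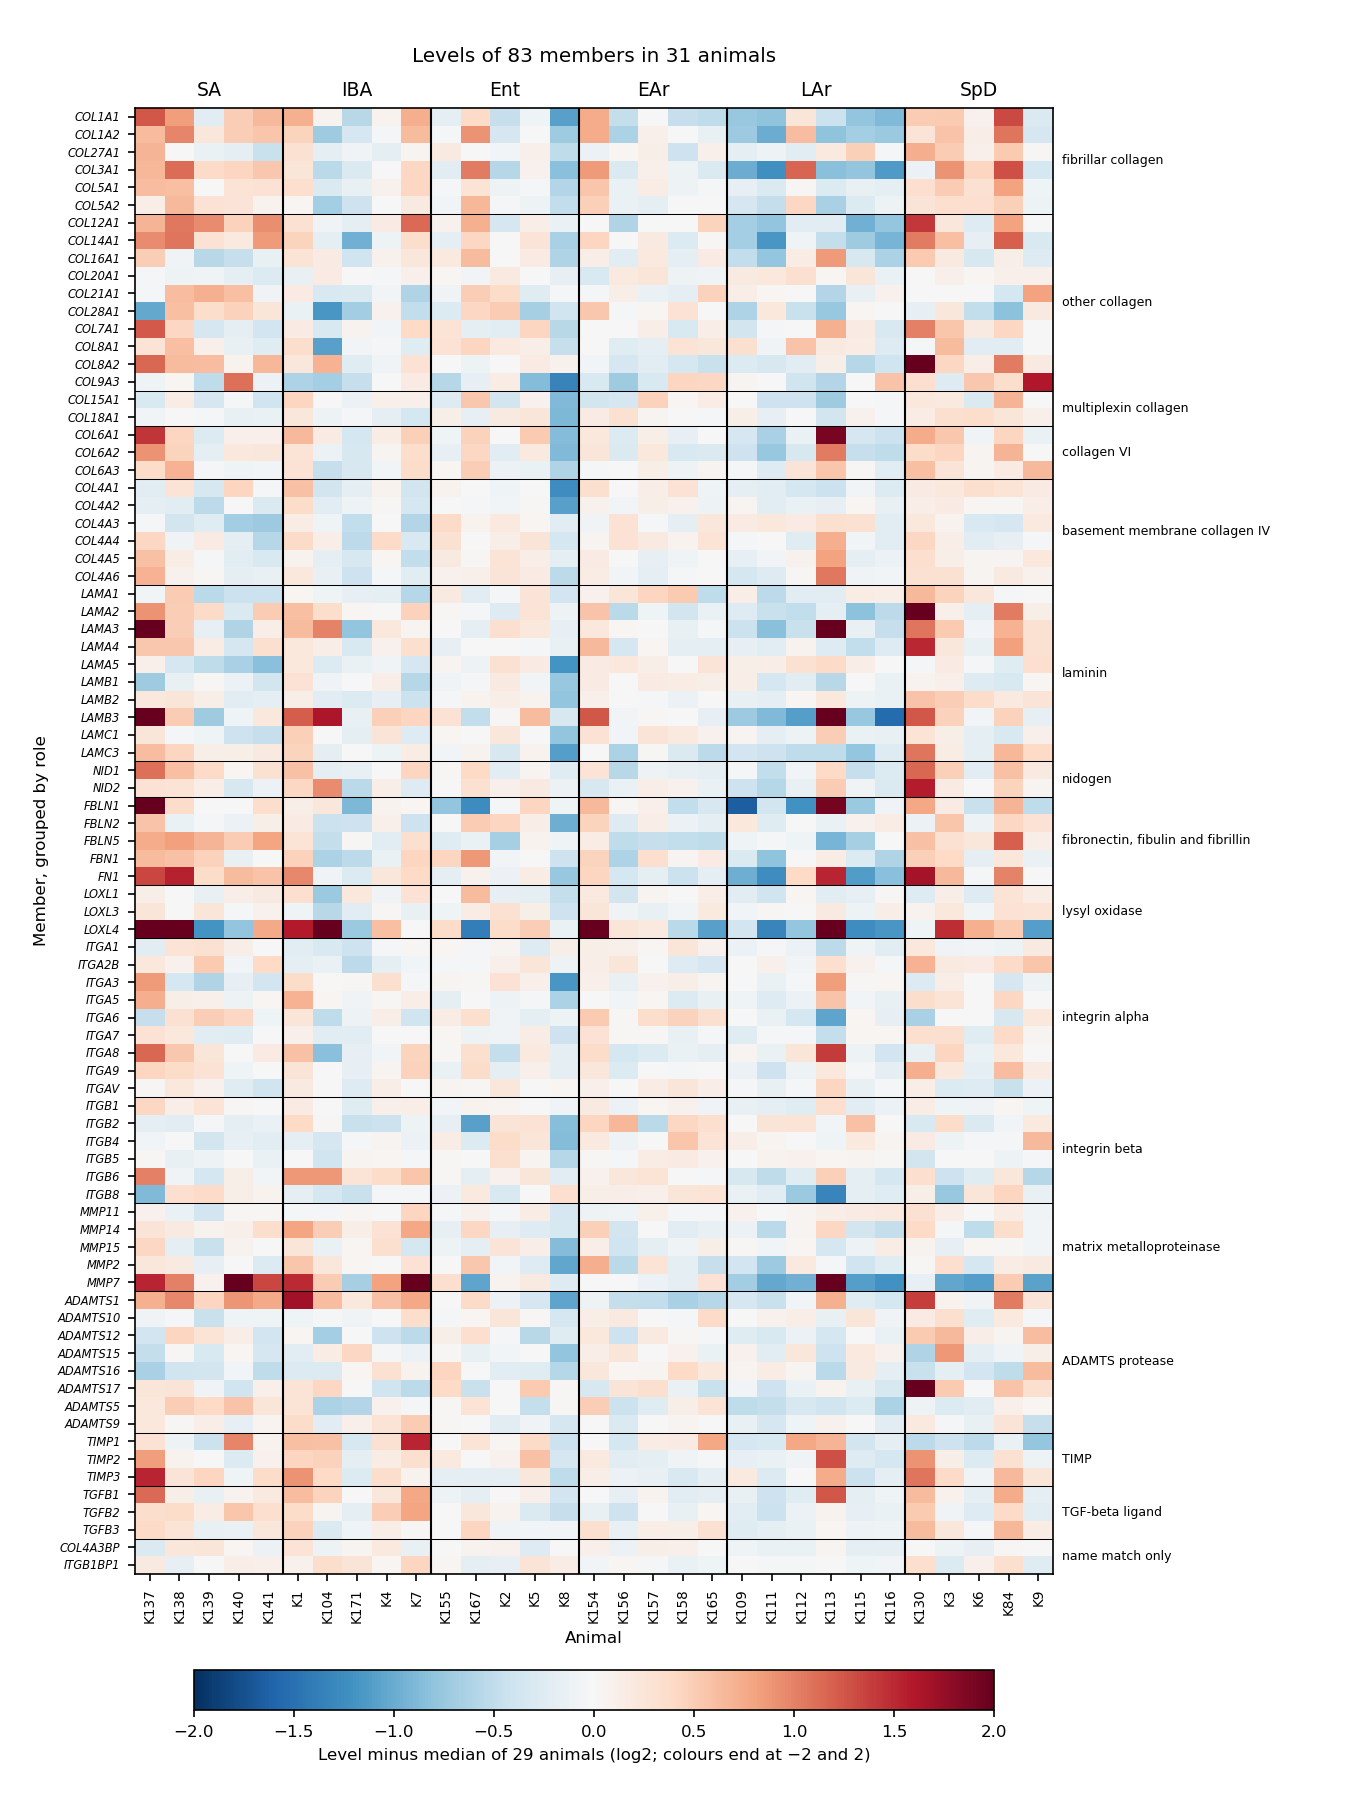
Levels of 83 of the 84 genes (rows, grouped by role) in 31 kidneys (columns, grouped by state), as the log2 value minus the gene's median over 29 animals. K113 and K137 hold dark red cells in LAMA3, LAMB3, FBLN1 and LOXL4, and K8 (Ent) is low across COL4A1, COL4A2, LAMA5 and LAMB2.

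Matrix genes were not called across the 6 states more often than other genes. At q under 0.05 by the limma F test, 32 of the 84 were called (38.1%), where 46.1% of all genes were. At q under 0.001, the threshold of the study, 3 were called, ADAMTS1, FBLN5 and ITGB6 (3.57%), where 9.34% of all genes were. With all 31 animals 23 and 3 were called, where 32.8% and 5.58% of all genes were, and without K113, K137 and K130 25 and 4, where 42.2% and 9.24% were. The count at q under 0.001 was 8 without K171 (IBA) and 1 without K138 (SA). The order of the states was alike in many members. The lowest fitted state was LAr for 43 of them (51.2%, against 15.8% of all genes), and the highest was SpD for 35 (41.7%, against 17% of all genes). In the fit of all 31, LAr was lowest for 34 and SpD highest for 34.

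The seasonal comparison asked whether levels differed between hibernating animals (mean of IBA, Ent, EAr and LAr) and active ones (mean of SA and SpD). Many interstitial matrix genes were lower in hibernating kidneys. Of the 84 genes, 26 were lower in hibernation at q under 0.05 (31%, where 16.8% of all genes were called lower) and 2 were higher (where 16.6% were called higher). The median difference of the 84 was -0.16, with 63 below 0, against 0.00024 over all genes. The hibernating mean includes the cold states Ent, EAr and LAr, whereas both active states were warm. Season and body temperature therefore cannot be told apart in it. Among the warm states, the median of IBA minus SA was 0.069, with 47 of the 84 above 0. That of SpD minus IBA was 0.18, with 57 above 0, and that of SA minus SpD was -0.20, with 58 below 0. The sign of the IBA minus SA median did not hold. It was -0.027 with all 31 animals, -0.17 within experiment 2 and -0.23 with only IBA and SA fitted. FBLN5 and COL8A2 were lower at q under 0.001, where 5.29% of all genes were called lower.

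Of the TGF-beta ligands, TGFB2 was lower in hibernation (-0.24 ± 0.09 SE, q = 0.0359), but not without K130 (-0.21, q = 0.0759). TGFB1 (-0.14, q = 0.285) and TGFB3 (-0.16, q = 0.15) were not called.

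Most fibrillar collagens were lower. COL1A1, COL1A2, COL3A1, COL5A1 and COL5A2, the chains of collagens I, III and V, were all lower in hibernation, and COL27A1 was not called, so 5 of 6 passed. COL1A1 read 9.17, 9.87, 10.03 and 10.21 in SA and 9.09, 9.47, 9.89, 9.90 and 10.71 in SpD. In IBA it read 8.83, 9.45, 9.46, 10.09 and 10.10, and in LAr 8.49, 8.58, 8.59, 8.63 and 9.62. The active and IBA ranges overlapped widely, and 4 of the 5 LAr animals lay below every active animal. The seasonal difference of COL1A1 was -0.64 ± 0.21 (SE, q = 0.0191), that of COL1A2 -0.59 ± 0.21 (q = 0.0339) and that of COL3A1 -0.69 ± 0.25 (q = 0.039). These were near the threshold: COL1A1 lost its call without K138 (SA) or K84 (SpD), COL1A2 without any 1 of 4 animals and COL3A1 without any 1 of 16, and COL3A1 also within experiment 2 (q = 0.0938).

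One LAr animal, K112, was high in fibrillar collagens. It read 10.25 for COL3A1 where the other LAr animals, K113 included, read 7.86 to 8.30, and it read 10.02 for COL1A2 where they read 8.41 to 8.73. The mean of 5 fibroblast markers (PDGFRA, PDGFRB, DCN, LUM and THY1) was also high in K112, at 9.74 against 8.71 to 8.94 in the other LAr animals without K113. K113 had a fibroblast mean of 9.80, above that of K112, while its COL3A1 was 8.24. The part of fibroblast content in these values was not tested.

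Fibronectin, which bridges collagen and integrins, had the largest seasonal difference of the 84 genes. FN1 read 10.88, 11.09, 11.15 and 12.05 in SA and 10.50, 10.52, 11.18, 11.51 and 12.18 in SpD. In the cold states it read 9.77 to 10.67 in Ent, 10.08 to 10.95 in EAr and 9.29, 9.41, 9.55, 9.69 and 10.92 in LAr. SA lay above all 5 Ent animals, and 4 of the 5 LAr animals lay below every animal of every other state. The seasonal difference was -0.92 ± 0.21 (SE, q = 0.00144), and -0.90 with all 31 animals although K113, at 12.04, was high.

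FBLN5, a fibulin needed for elastic fibre assembly, had the lowest seasonal q of the 84 genes. It read 10.62, 10.80, 10.90 and 10.94 in SA and 10.25, 10.34, 10.43, 10.71 and 11.31 in SpD. The IBA animals read 9.65, 9.91, 10.15, 10.39 and 10.44, and the Ent animals 9.46, 9.88, 9.99, 10.03 and 10.20. EAr read 9.61 to 10.26 and LAr 9.46 to 10.12. Every SA animal was above every hibernating animal, and SpD overlapped IBA in 2 animals of IBA and 3 of SpD. The difference was -0.78 ± 0.12 (SE, q = 2.23e-05), and no alternative or left-out animal took it past q of 0.00013. The 2nd row of FBLN5 was used for this gene only in the alternative that took the mean of both rows. Its own levels are not given here.

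Among collagens that sit on or between fibrils, COL12A1 and COL14A1, which decorate collagen I fibrils, fell by 0.73 each (SE 0.16 and 0.19). COL8A2, a short-chain network collagen, fell by 0.74 ± 0.14 (SE, q = 0.000392), with means of 6.79 in SA and 7.05 in SpD, against 6.47 in IBA, 6.32 in Ent, 6.01 in EAr and 5.94 in LAr. Its highest animal by far was K130 at 8.32. COL9A3 was lower by 0.55 and was the only member called between the sexes. In collagen VI, the beaded filament of the interstitium, COL6A2 and COL6A3 were lower and COL6A1 was not called.

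Basement membrane genes were split. None of the 6 collagen IV chains was lower, and COL4A3, a chain of the mature glomerular basement membrane, was higher in hibernation (0.29 ± 0.10 SE, q = 0.0273). COL4A1 (-0.26, q = 0.121) and COL4A2 (-0.01, q = 0.974), the chains found in most basement membranes, were not called. Of 11 laminins, LAMA2, LAMA4, LAMB2 and LAMC3 were lower, and of the 2 nidogens, which link laminin to collagen IV, NID1 was. LAMC3 had means of 10.65 in SA and 10.86 in SpD, against 10.50 in IBA, 10.17 in Ent, 10.16 in EAr and 9.97 in LAr (seasonal difference -0.56 ± 0.12 SE, q = 0.00128). In the fit LAMC3 was 10.485 in SA and 10.552 in IBA, so IBA was not below SA there.

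Of 9 integrin alpha genes, ITGA1 (a collagen receptor), ITGA2B (the platelet fibrinogen receptor) and ITGA9 were lower, and ITGAV, the subunit shared by the integrins that release TGF-beta, was higher (0.17 ± 0.06 SE, q = 0.0341). None of the 6 integrin beta genes was called between seasons. The difference was -0.08 for ITGB1 (q = 0.208), 0.20 for ITGB6 (q = 0.0906) and -0.18 for ITGB8 (q = 0.186).

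Few matrix enzymes were called. None of the 5 MMPs and none of the 3 LOX-like crosslinking enzymes was called between seasons. MMP2, a gelatinase, differed by -0.07 (q = 0.726) and MMP14, the membrane protease that activates it, by -0.09 (q = 0.579). Of 8 ADAMTS proteases, ADAMTS1, ADAMTS5 and ADAMTS12 were lower. Of the inhibitors, TIMP3, which is held in the matrix, was lower (-0.38 ± 0.12 SE, q = 0.0192) but not without K130 (q = 0.053), whereas TIMP1 (0.34, q = 0.154) and TIMP2 (-0.06, q = 0.695) were not called.

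**Figure D2:**
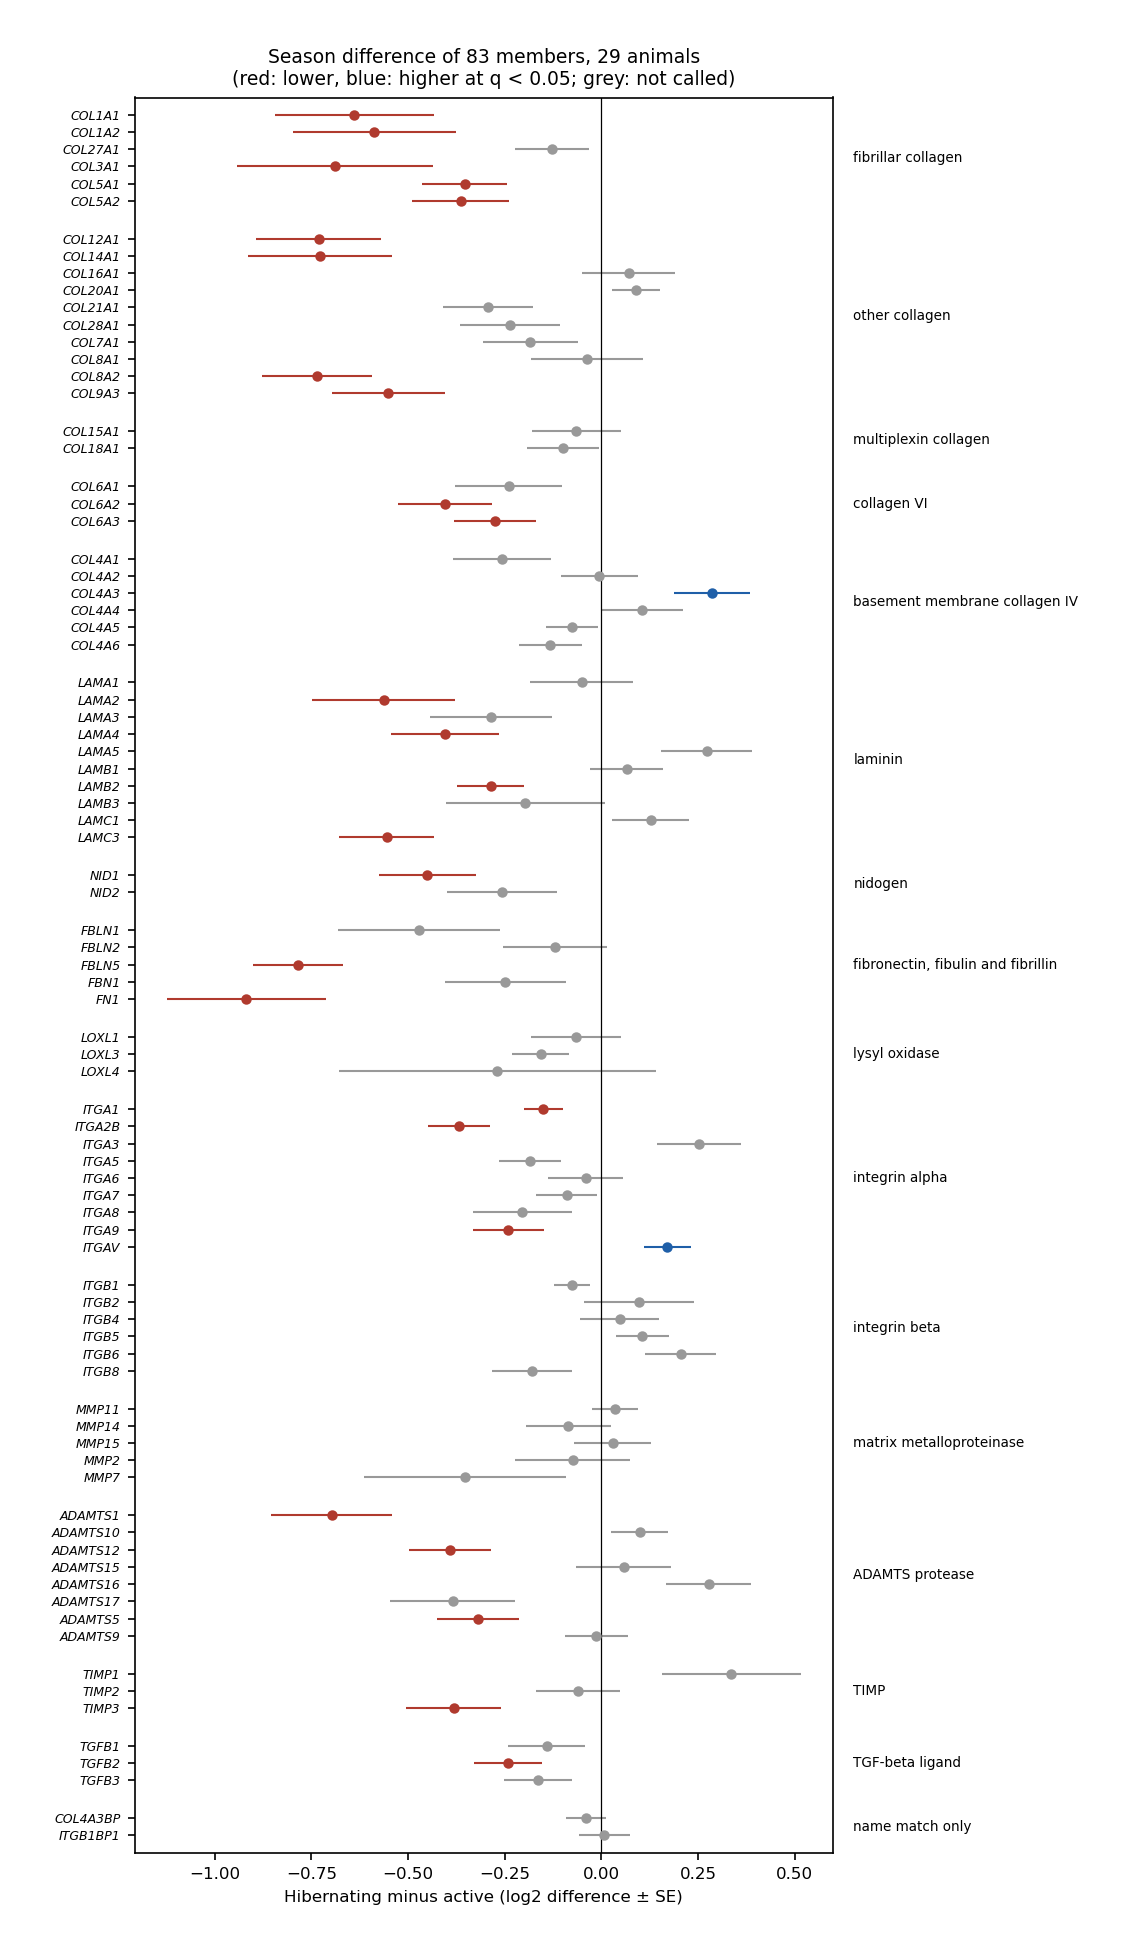
Seasonal difference of 83 of the 84 genes (x axis, hibernating minus active, log2, point with SE) by role, from the fit of 29 animals. Red points were lower and blue points higher at q under 0.05. Of the 6 fibrillar collagens 5 are red, and the point farthest to the left is FN1 at -0.92.

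Markers of interstitial and vascular cells moved with the season too. Of 6 endothelial markers 4 were lower in hibernation, of 6 smooth muscle and pericyte markers 3 and of 5 fibroblast markers 2, and none of the 17 was higher. The fibroblast mean ran from 9.57 to 10.14 in SA and 9.10 to 10.48 in SpD, against 8.84 to 10.05 in IBA, 9.22 to 9.87 in Ent, up to 10.02 in EAr and 8.71 to 9.74 in LAr, so that the ranges overlapped. None of 6 podocyte markers was called, and of the tubule lists 2 of 6 proximal and 2 of 4 collecting duct markers were lower. The part of cell composition in the seasonal result was not tested. Within experiment 2 alone the seasonal count was 34 lower and 5 higher, where 39% of all genes were called, and COL4A3 and ITGAV were not among the 5. Counting K113 and K137, 25 were lower and 0 higher, where 14.3% and 14.5% of all genes were. The 2 higher calls, COL4A3 and ITGAV, were thus lost, as they were without K141 (SA), K6 (SpD) or K84 (SpD). Without K113, K137 and K130, 20 were lower and 3 higher (COL4A3, ITGAV and ITGB6), where 16.9% and 16.1% of all genes were. Without K138 (SA) 16 genes were lower. Without K8 (Ent) 6 were higher, and without K140 (SA) 1 was. FBLN5, COL8A2, ADAMTS1, COL12A1, COL14A1, FN1, ITGA2B and LAMC3 were called in every alternative that tested them and with every animal left out. COL8A2 and ITGA2B were not tested where a mean level of at least 8 was required.

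**Figure D3:**
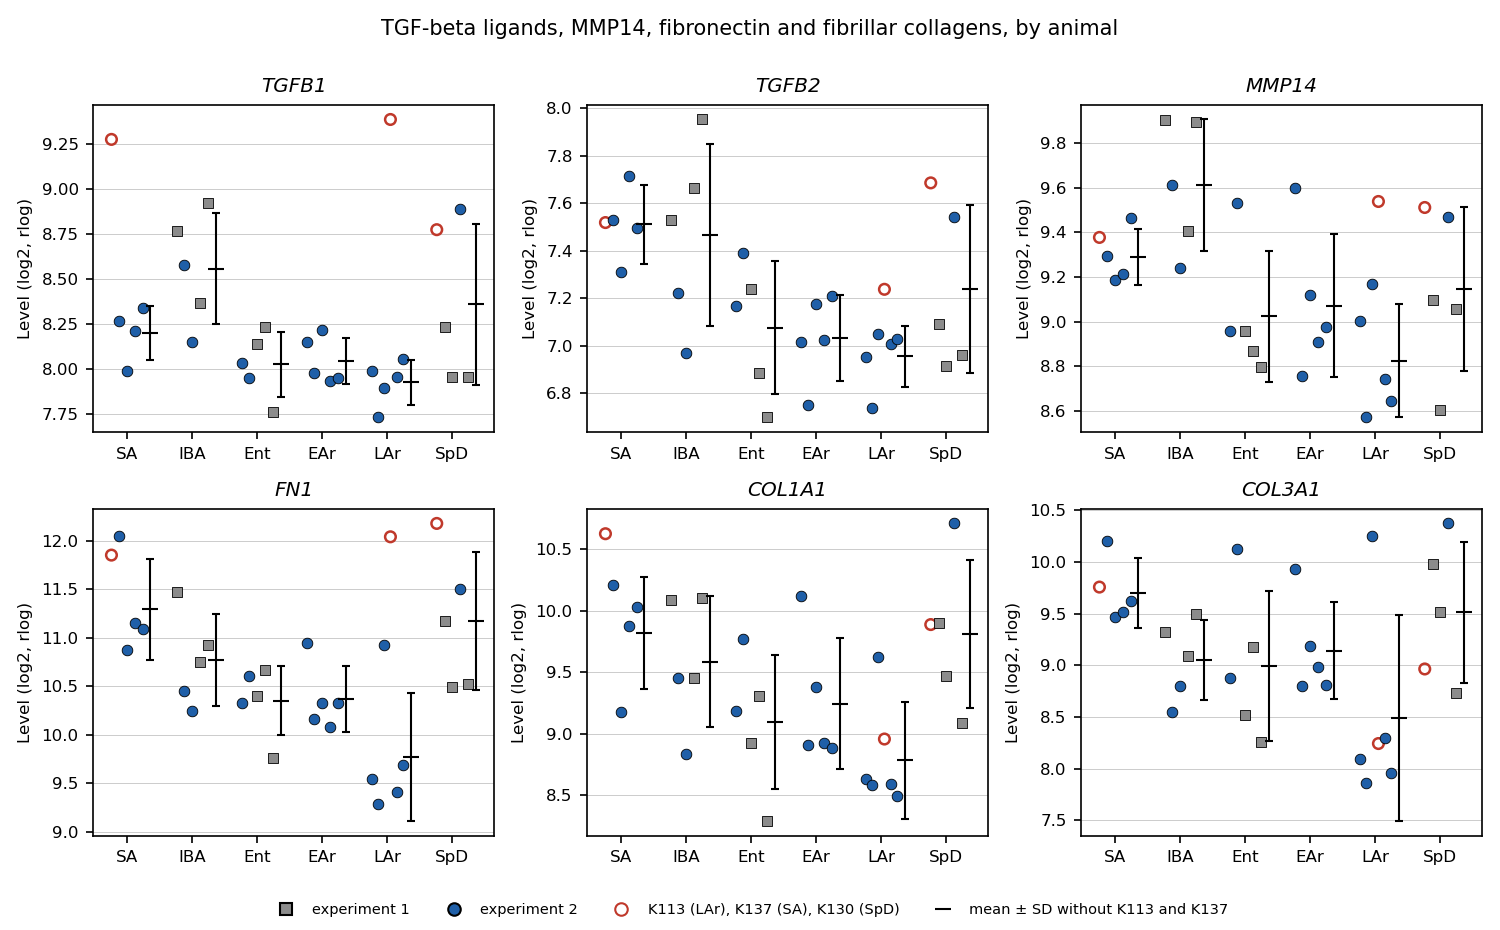
Level (y axis, log2 rlog) of TGFB1, TGFB2, MMP14, FN1, COL1A1 and COL3A1 in every animal by state, with the mean ± SD of 29 animals. Squares are experiment 1, circles experiment 2 and open red circles K113, K137 and K130. In TGFB1, TGFB2 and MMP14 the highest IBA points are squares, and in COL3A1 the LAr animal K112 stands at 10.25.

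A partly different set was higher once the animals were warm. The step from LAr to IBA, from a cold rewarming kidney to a warm one, asked which matrix genes were higher once body temperature had recovered. Of the 84 genes, 17 were higher in IBA (20.2%, where 9.93% of all genes were called higher) and 0 lower (8.03% of all genes; 2 members at an unadjusted p under 0.05). The median difference of the 84 was 0.22, against -0.0074 over all genes. The 17 took in 2 of 3 TGF-beta ligands and 4 of 11 laminins. No fibrillar collagen and no collagen IV chain was among them.

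ITGB6, the epithelial partner of alpha V in an integrin that frees latent TGF-beta, led this comparison. It read 10.70, 10.80, 10.98, 11.29 and 11.30 in IBA, against 9.92, 10.07, 10.10, 10.18 and 10.25 in LAr. It read 10.20 to 10.66 in Ent, 10.39 to 10.70 in EAr, 10.07 to 10.53 in SA and 9.85 to 10.76 in SpD. IBA and LAr did not overlap, and all 5 IBA animals were above every SA, Ent and EAr animal other than K137 (11.43). IBA exceeded LAr by 1.02 ± 0.16 (SE, q = 0.000219) and SA by 0.79 ± 0.17 (q = 0.00218), and Ent was below IBA by 0.60 ± 0.14 (q = 0.00926). ITGB6 was the single member called at q under 0.001 between LAr and IBA, where 0.964% of all genes were higher at that threshold. With K113, which at 10.91 was the highest LAr animal, the difference was 0.88 and was still called, but over all 31 animals the ITGB6 calls against SA and against Ent were lost.

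The TGF-beta ligands followed. TGFB1 read 8.15, 8.37, 8.58, 8.77 and 8.92 in IBA and 7.73, 7.89, 7.96, 7.99 and 8.06 in LAr, with no overlap, and the difference was 0.72 ± 0.18 (SE, q = 0.00742). TGFB2 was higher by 0.60 ± 0.15 (q = 0.00975), and TGFB3 was not called (0.29). Without K113, TGFB2 fell short of the authors' minimum of 7 in LAr, so its call is a description. K113 read 9.39 for TGFB1, above every IBA animal, and with all 31 animals the TGFB1 call was lost.

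Of the proteases, 2 of 5 MMPs and 2 of 8 ADAMTS genes were higher. MMP14 was higher in IBA by 0.91 ± 0.19 (SE, q = 0.00298), and MMP7, a small secreted protease of epithelial cells, by 1.74 ± 0.46 (q = 0.012). MMP7 reached the authors' minimum of 7 in IBA but not in LAr, so its call is a description. ADAMTS1, a protease of versican and other proteoglycans, read 9.93, 10.31, 10.33, 10.49 and 11.39 in IBA and 9.28, 9.38, 9.39, 9.47 and 9.66 in LAr. These ranges did not overlap, and the difference was 1.31 ± 0.27 (SE, q = 0.00273). In active animals ADAMTS1 had a mean of 10.48 (SA) and 10.26 (SpD), against 10.49 in IBA, and it was low in all 3 cold states (9.50 in Ent, 9.26 in EAr, 9.44 in LAr). Its fitted means were 10.27 in SA, 10.32 in SpD and 10.55 in IBA.

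Among structural genes, LAMB3 was higher in IBA by 1.83 ± 0.36 (SE, q = 0.00181), LAMA2 by 1.10, FN1 by 1.13 and COL12A1 by 1.16. LAMB3 read 7.78 to 9.54 in IBA and 6.38 to 7.20 in LAr. Without K113 it fell short of the authors' minimum of 7 in LAr, so its call is a description. COL12A1 read 9.66 to 10.98 in IBA and 8.90 to 9.62 in LAr. In neither gene did the groups overlap, K113 left out. K113 read 12.37 for LAMB3 and 10.26 for MMP7, above every IBA animal, and both calls were lost when it and K137 were included. Over the 84 genes, 10 were higher in every IBA animal than in every LAr animal except K113, where 7.62% of all genes were.

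**Figure D4:**
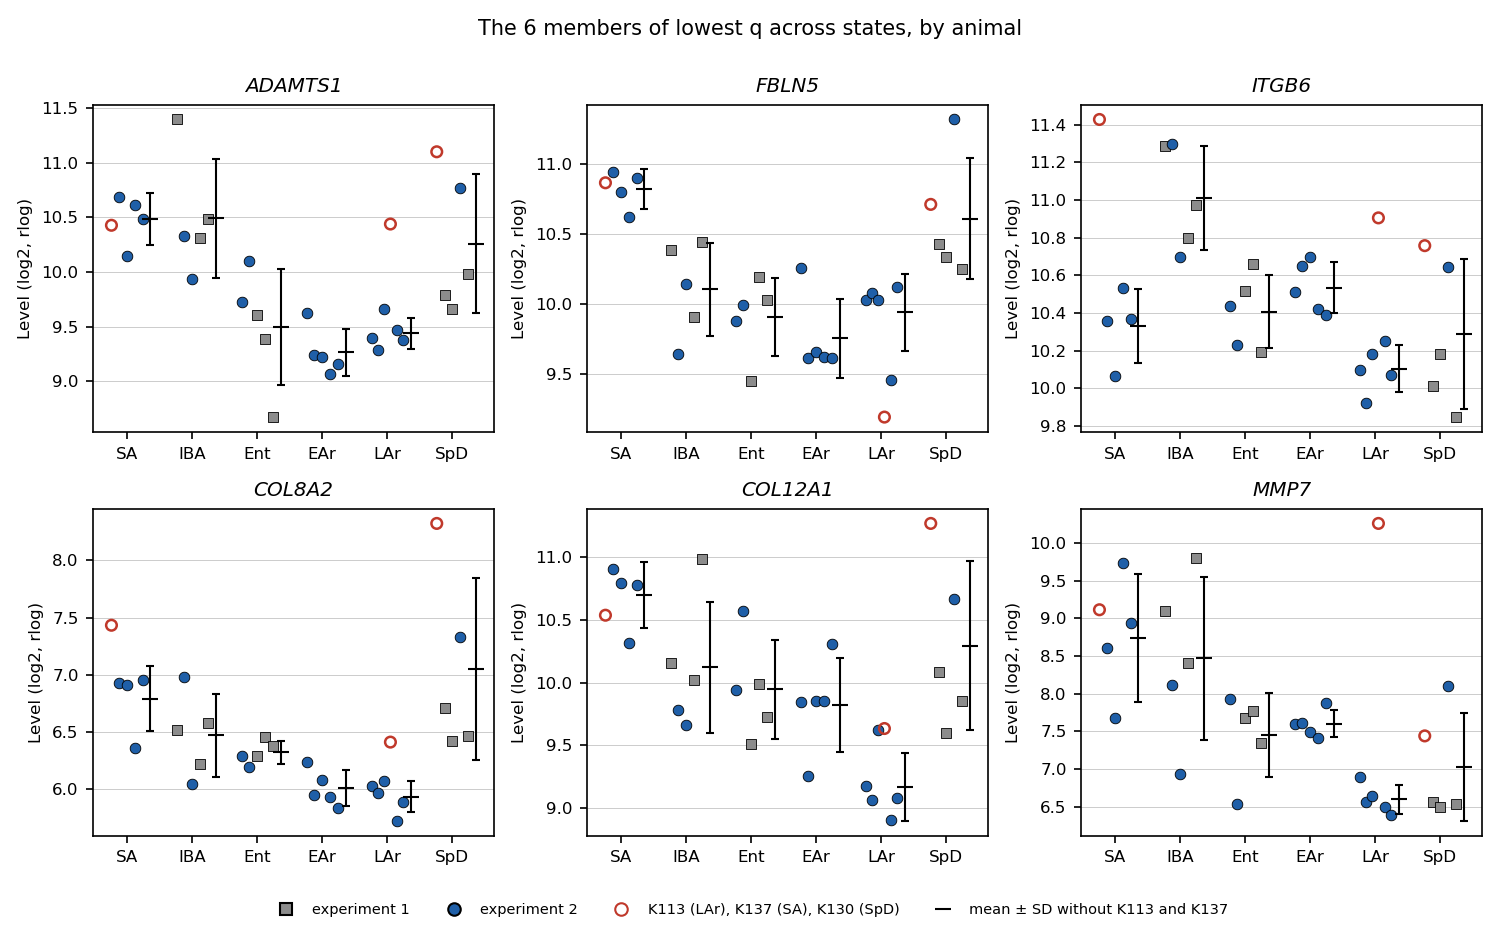
Level (y axis, log2 rlog) of ADAMTS1, FBLN5, ITGB6, COL8A2, COL12A1 and MMP7, the 6 genes of lowest q across states, in every animal by state, with the mean ± SD of 29 animals. ADAMTS1 is low in Ent, EAr and LAr, FBLN5 is high in SA and SpD, ITGB6 is high in IBA, and the open LAr circle at 10.26 in MMP7 is K113.

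The IBA calls depended on which animals were in the fit. Within experiment 2, with 2 IBA animals, 5 genes were higher (where 7.49% of all genes were called in either direction) and the median was 0.044, and in a fit of IBA and LAr alone 0 were called (1.41% of all genes), with 7 higher and 11 lower at an unadjusted p under 0.05. With all 31 animals 7 were higher, where 4.87% of all genes were, and without K113, K137 and K130 13 were, where 8.78% were. The count was 30 without K171 (IBA), 11 without K1 (IBA), 10 without K111 (LAr), 9 without K115 (LAr) and 11 without K116 (LAr). ADAMTS1, ITGB6, LAMB3 and TGFB1 were called within experiment 2 as well, but of these only ADAMTS1 and ITGB6 were also called with all 31 animals. Marker means moved too: the podocyte list was lower in IBA in 4 of 6 genes and the inner medulla list higher in 2 of 6, and their part in the result was not tested.

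Few matrix genes were lower on entry into torpor. From IBA to Ent, 4 were lower (where 7.61% of all genes were) and 0 higher (5.52% of all genes; 3 members at an unadjusted p under 0.05). The 4 were ITGB6 (-0.60), ADAMTS1 (-0.99), TGFB1 (-0.53) and MMP14 (-0.59), each among the 17 that were higher in IBA than in LAr, a comparison that shares the IBA animals. Within experiment 1 the ADAMTS1 difference was -1.52 and within experiment 2 it was -0.26, whereas ITGB6 gave -0.63 and -0.68. MMP14 gave -0.85 and -0.15. None of the 4 was called within either experiment alone, and the count was 2 without K1 or without K7 (both IBA) and 10 without K171.

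Set against IBA together, the cold states (mean of Ent, EAr and LAr) had 16 genes lower (where 14.1% of all genes were) and 2 higher (where 12.3% were). ADAMTS1 (-1.27 ± 0.22 SE, q = 0.000249) and ITGB6 (-0.73 ± 0.13, q = 0.000302) were lower at q under 0.001, where 2.46% of all genes were called lower. At q under 0.05 both were lower in every alternative, with a highest q of 0.032 for ADAMTS1 and 0.0116 for ITGB6. MMP14, TGFB1 and TGFB2 were lower by 0.73, 0.62 and 0.52. The higher ones were COL28A1 (0.54) and ITGA1 (0.20), and both calls were lost with all 31 animals, where 0 members were higher and 7 lower against 7.21% and 8.87% of all genes. Within experiment 2 only 3 genes were lower, and the median of the 84 was 0.072 where it had been -0.11. Without K1 or K7 (IBA) 7 were lower, without K4 (IBA) or K111 (LAr) 10, and without K171 (IBA) 27. The count of higher genes ran from 0 without K104 (IBA) to 7 without K8 (Ent).

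No member was called from Ent to EAr or from EAr to LAr. From Ent to EAr, which spans the torpor bout, 0 members were called by limma (0.257% of all genes), with 2 higher and 1 lower at an unadjusted p under 0.05. From EAr to LAr 0 were called (0.575% of all genes), with 0 higher and 14 lower at an unadjusted p under 0.05. In that step 69 of the 84 differences were below 0, with a median of -0.13 against 0.00056 over all genes. LAMB3 (-1.25), MMP7 (-0.97), ITGB6 (-0.43) and 6 others were lower in every LAr animal than in every EAr animal, 9 in all, where 3.1% of all genes were. With K113 included 56 of the 84 were below 0, and in a fit of EAr and LAr alone 4 were called lower.

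Between seasons at warm body temperature, IBA was compared with each active state. Against SA, 7 genes were lower in IBA (where 12.5% of all genes were) and 1, ITGB6, was higher (10.4%). The lower ones were COL28A1 (-1.02 ± 0.24 SE, q = 0.00384), ITGA1 (-0.38), COL21A1 (-0.74), ADAMTS5 (-0.63), ITGA2B (-0.47), FBLN5 (-0.67) and ITGA6, a laminin receptor (-0.50). COL28A1 read 12.51 to 12.86 in SA and 11.11 to 12.36 in IBA. Over all 31 animals 3 genes were lower, where 6.11% of all genes were, and COL28A1, which read 11.25 in K137, below every other SA animal, was not among them. Without K171 (IBA) the count was 13 and without K139 (SA) 4.

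From IBA to SpD, 6 genes were higher (where 6.48% of all genes were) and 3 lower (5.42%). ITGA2B (0.62 ± 0.13 SE, q = 0.00258), ADAMTS12 (0.71), LAMB2 (0.56), a laminin of glomerular and muscle basement membranes, COL9A3 (0.83), COL4A5 (0.33) and LOXL3 (0.36) were higher. ITGB6 (-0.72 ± 0.14, q = 0.00228), MMP7 (-1.44) and TIMP1 (-1.01) were lower. MMP7 did not reach the authors' minimum of 7 in SpD, nor ADAMTS12 in IBA, so the calls of MMP7 and ADAMTS12 are descriptions. LAMB2 read 13.02 to 13.40 in SpD and 12.39 to 12.95 in IBA. MMP7 depended on the experiment, at -2.56 ± 0.31 (SE, q = 0.0177) within experiment 1 and 0.30 ± 0.54 (q = 0.778) within experiment 2. The COL4A5, LOXL3 and MMP7 calls were lost with all 31 animals, and COL4A5 also without K130. Without K9 (SpD) 5 were called. Experiment 2 alone gave 21 higher and 1 lower, where 7.53% of all genes were called.

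From SpD to SA, 2 genes were higher (MMP7 by 1.83 and COL28A1 by 0.76, where 5.47% of all genes were higher) and 2 lower (COL27A1 by 0.67 and ADAMTS17 by 0.95, where 5.01% were). MMP7 did not reach the authors' minimum of 7 in SpD, nor ADAMTS17 in any group. All 4 calls were lost with all 31 animals, where 0.482% of all genes were higher and 0.49% lower. They were also lost without K113, K137 and K130, where 0.435% were higher and 0.303% lower. As single animals were left out the count ran from 0 without K130 to 8 without K5 (Ent). Between the sexes 1 member was called (0.218% of all genes), COL9A3, lower in females by 0.71 ± 0.14 (SE, q = 0.0257). That call was lost with all 31 animals, within experiment 2 and without any 1 of 5 animals. In no member did the seasonal difference depend on sex at q under 0.05 (limma interaction, 0 of all genes), and 2 did so at an unadjusted p under 0.05, ADAMTS9 and ADAMTS17.

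K113 and K137 departed from their groups further in matrix genes than any other animal. The root mean square departure of the 84 genes from the mean of the group's other animals was 1.30 in K113, 1.04 in K137 and 0.61 in K130, against 0.21 to 0.64 in the other 28. K113, K137 and K130 were also the farthest over all genes, at 0.53, 0.48 and 0.48, with K8 next at 0.39. K113 was above every other LAr animal in 45 genes (53.6%, against 35.6% of all genes) and below in 20 (23.8%, against 37.2%). K137 was above every other SA animal in 44 (52.4%, against 33.9%), and K130 above every other SpD animal in 38 (45.2%, against 32.7%). Each is 1 animal, so these are descriptions with no test.

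LAMA3 and LAMB3, chains of epithelial laminin, were high in all of them. LAMB3 read 12.37 in K113 against 6.38 to 7.20 in the other LAr animals. It read 11.14 in K137 against 7.22 to 8.44 in SA, and 9.16 in K130 against 7.76 to 8.39 in SpD. LAMA3 read 10.609, 9.998 and 8.605 in K113, K137 and K130. The departure from the group was largest in K113 and smallest in K130 for both chains.

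LOXL4, a LOX-like enzyme that crosslinks collagen, was further out still. It read 12.54 in K113 against 6.70 to 7.63 in the other LAr animals, and 14.41 in K137 against 6.83 to 10.33 in SA. In K130 it read 7.94, inside its group. In all 3 animals 22 genes were above the rest of the group (26.2%, against 14.0% of all genes), LAMA3, LAMB3, TIMP2 and FBLN1 among them, and 2 were below, ITGA6 and ADAMTS15 (2.38%, against 13.3% of all genes).

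TIMP2, an inhibitor that also takes part in MMP2 activation, read 13.31 in K113, 12.86 in K137 and 12.92 in K130, against a highest value of 12.61 in the other 28. MMP7 and FN1 were not shared. MMP7 read 10.26 in K113 against 6.39 to 6.90 in LAr, but K137 (9.11) and K130 (7.44) lay inside their groups. FN1 read 12.04 in K113 and 12.18 in K130, above their groups, and 11.85 in K137, inside its group. The inner medulla markers (SLC14A2, CRYAB, AKR1B1, SLC5A3, SLC6A6 and SLC6A12) moved with them: their mean was 13.16 in K113 against 10.73 to 11.02 in LAr, 13.80 in K137 against 10.781 to 12.002 in SA, and 12.85 in K130. The proximal tubule mean was 13.68 in K113 against 14.44 to 14.90, and 14.19 in K137 against 15.08 to 15.35. It was 13.43 in K130 against 14.39 to 15.25 in the other SpD animals, whose inner medulla mean ran from 11.27 to 12.17. The part of the region sampled in these departures was not tested.

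**Figure D5:**
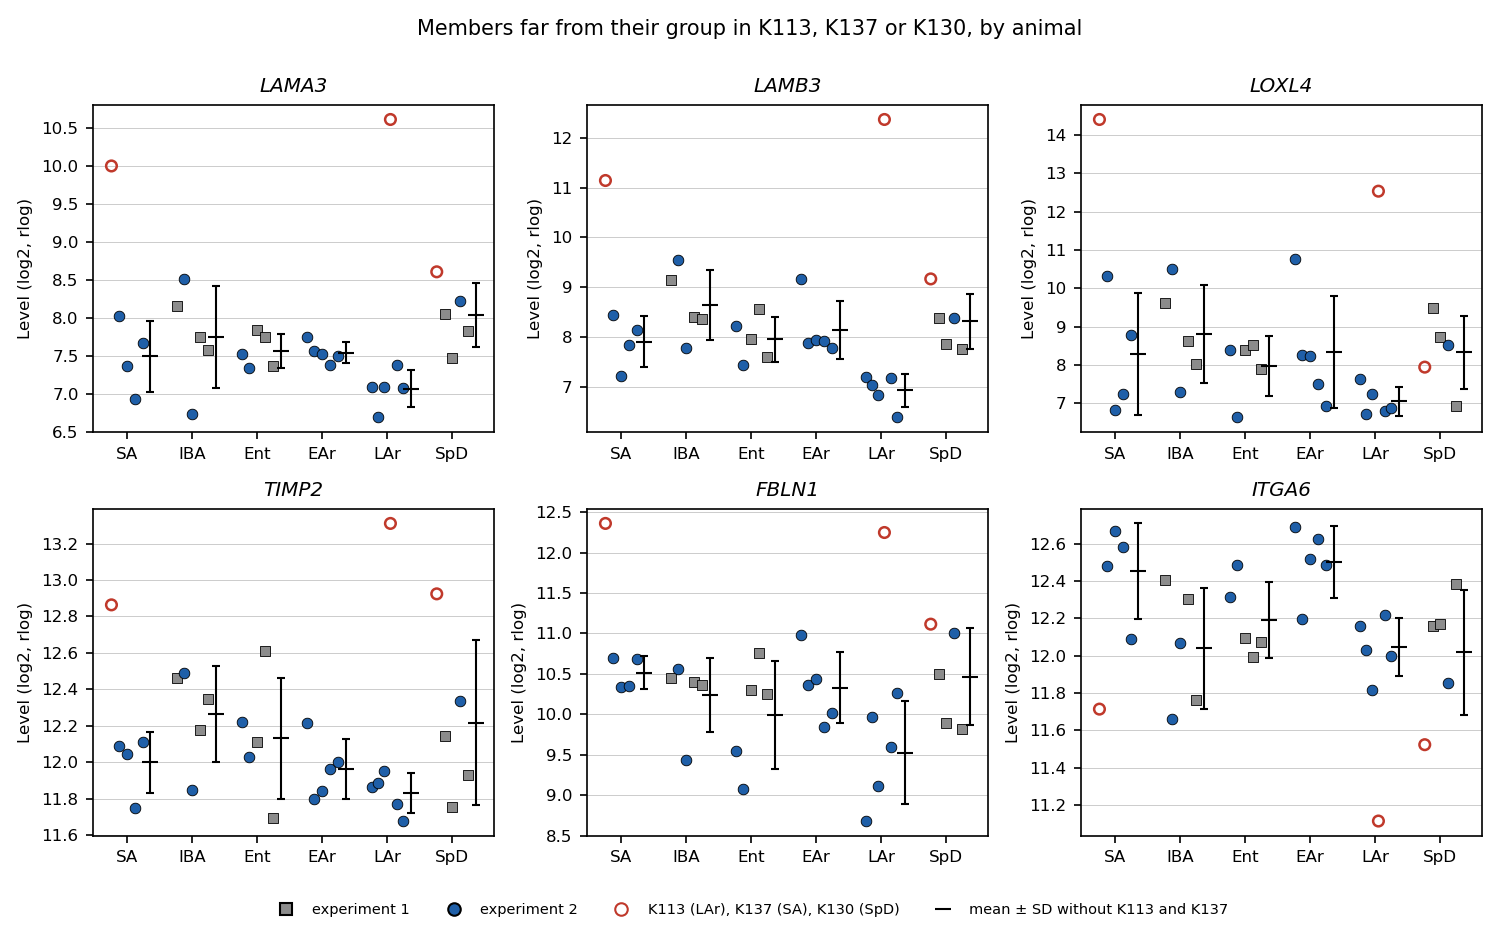
Level (y axis, log2 rlog) of LAMA3, LAMB3, LOXL4, TIMP2, FBLN1 and ITGA6 in every animal by state, with the mean ± SD of 29 animals. The open red circles of K113 (LAr) and K137 (SA) lie above the other animals of their groups in every panel but ITGA6, where they lie below, and that of K130 (SpD) does the same except in LOXL4.

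Of 123 genes listed for TGF-beta signalling, collagen processing, proteoglycans and elastic fibres, other proteases and integrin adaptors, 97 were tested. Between seasons 24 of them were lower in hibernation and 5 higher (where 16.8% and 16.6% of all genes were), and between LAr and IBA 9 were higher in IBA and 2 lower (where 9.93% and 8.03% were). Of 14 collagen processing genes 6 were lower in hibernation and 0 higher. Among them P4HA1, a prolyl hydroxylase of collagen chains, fell by 0.35 and PCOLCE2, an enhancer of procollagen cleavage, by 1.40. PCOLCE2 read 10.11 to 10.37 in SA and 7.73 to 8.46 in IBA, with no overlap. In SpD it read 8.20 to 9.99, which overlapped IBA. THBS1, a matrix protein that can activate latent TGF-beta, was higher in IBA than in LAr by 1.02, beside TGFB1 and ITGB6. CYR61, a matricellular immediate early gene, was higher in LAr than in EAr by 0.99 (11.34 to 11.87 against 10.56 to 11.01). Its mean was 11.68 in LAr against 11.04 in IBA, where it read 10.39 to 11.72.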

How the data were processed

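RNA-seq of 31 kidneys was used. The authors used cutadapt for trimming, set aside mitochondrial reads after HISAT2 mapping, estimated transcript abundance by Salmon (annotation HiC_Itri_2), summed it to genes, filtered low genes, and deposited rlog values on the log2 scale (DESeq2) from which limma had removed the difference between experiments. Tool versions are not given in the sources used here. Counts were not used, so depth is unknown and precision is the spread between animals.

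Here limma 3.58.1 (R 4.3.3) was fitted to all 12863 genes with state, sex and experiment as terms and an intensity trend, with Benjamini-Hochberg q values per comparison over all genes; q under 0.05 was called, and 0.001 is the study's threshold. The study's own test was run on counts, so its calls can differ. Each animal is 1 sample. SE is that of the fit and SD that of the animals. The script was tested on simulated data.

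Genes named are those at q under 0.001, the lowest q values up to 10 in each direction, the 6 lowest q across states, the 4 farthest in K113, K137 and K130 each way, and fixed fibrosis genes; LAMA3, LOXL4, members named beside small counts, and remarks on K8, K112, K154 and K171 were added after their values were seen. The genes and lists were chosen with earlier results of these data known. Alternatives are given under the dependence on processing. Of the 84 symbols 83 are in RefSeq (mIctTri1.hap1), which is not the build of the files, so no positions are given. The values of 1 member are not reported here.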

Additional observations from a re-analysis of the deposited data

Results flagged for a closer look

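Dixon's test for an outlying sample was run on 282 groups (47 named genes in 6 states, all 31 animals), and 32 held an animal far from its group. Chance alone marks about 1 in 20 groups, but some of these genes were chosen for lying far from their group in K113, K137 and K130, so the count is a description and is not set against that share. K113 accounted for 12 of them. The range in parentheses is that of the other animals of the same group.

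K113 (LAr) read 10.44 for ADAMTS1 (9.28 to 9.66), 10.12 for COL4A5 (9.12 to 9.41), 11.12 for ITGA6 (11.82 to 12.22), 13.02 for ITGAV (12.44 to 12.57), 13.36 for ITGB1 (12.79 to 12.91), 10.91 for ITGB6 (9.92 to 10.25), 10.61 for LAMA3 (6.69 to 7.38), 12.37 for LAMB3 (6.38 to 7.20), 12.54 for LOXL4 (6.70 to 7.63), 10.26 for MMP7 (6.39 to 6.90), 9.39 for TGFB1 (7.73 to 8.06) and 13.31 for TIMP2 (11.68 to 11.95).

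K8 (Ent) read 8.02 for ADAMTS15 (8.66 to 8.83), 11.50 for COL4A1 (12.66 to 12.81), 11.88 for COL4A2 (12.92 to 12.99) and 12.03 for LAMB2 (12.78 to 12.95).

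K130 (SpD) read 8.63 for ADAMTS17 (6.62 to 7.19).

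K156 (EAr) read 8.10 for ADAMTS9 (8.37 to 8.44).

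K112 (LAr) read 10.02 for COL1A2 (8.41 to 8.73) and 10.25 for COL3A1 (7.86 to 8.30).

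K137 (SA) read 11.25 for COL28A1 (12.51 to 12.86), 12.36 for FBLN1 (10.33 to 10.70), 10.65 for ITGB8 (11.60 to 11.91) and 9.28 for TGFB1 (7.99 to 8.34).

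K116 (LAr) read 11.97 for COL4A3 (12.33 to 12.50).

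K171 (IBA) read 9.43 for FBLN1 (10.37 to 10.56).

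K154 (EAr) read 10.26 for FBLN5 (9.61 to 9.66), 10.95 for FN1 (10.08 to 10.33) and 9.16 for LAMB3 (7.76 to 7.94).

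K2 (Ent) read 12.83 for ITGAV (12.59 to 12.65).

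K167 (Ent) read 9.53 for MMP14 (8.80 to 8.96) and 7.32 for TGFB3 (6.82 to 6.89).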

How the results depend on the processing

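The members called at q under 0.05 were recounted under each alternative. With all 31 animals the counts were 3 for IBA against SA, 1 for Ent against IBA, 7 for IBA against LAr, 0 for SA against SpD, 0 higher in hibernation, and 0 higher and 7 lower in the cold states than in IBA. Without K113, K137 and K130 they were 1 for LAr against EAr and 0 for SA against SpD. Without a term for experiment they were 10 for IBA against LAr and 0 higher in the cold. With array weights they were 49 across states (10 at q under 0.001), 19 for Ent against IBA, 5 for LAr against EAr, 30 for IBA against LAr, 14 for SpD against IBA, 1 for SA against SpD, 9 higher in hibernation and 10 higher in the cold. Within experiment 2 they were 10 across states at q under 0.001, 17 for IBA against SA, 0 for Ent against IBA, 5 for IBA against LAr, 22 for SpD against IBA, 25 for SA against SpD, 5 higher in hibernation and 3 lower in the cold. Of all genes, in either direction, 19.5% were called for IBA against SA, 0.257% for Ent against IBA and 7.49% for IBA against LAr. The shares were 7.53% for SpD against IBA, 26.4% for SA against SpD, 39% between seasons and 7.4% for the cold states against IBA. With a mean level of at least 8 required they were 5 for IBA against SA, 5 for SpD against IBA and 2 for SA against SpD, with fewer genes tested. At q under 0.01 they were 13 across states, 3 for IBA against SA, 1 for Ent against IBA, 7 for IBA against LAr, 4 for SpD against IBA, 0 for SA against SpD, 0 higher and 11 lower in hibernation, and 0 higher and 5 lower in the cold. With only the compared groups fitted they were 5 for IBA against SA, 0 for Ent against IBA, 4 for LAr against EAr, 0 for IBA against LAr, 2 for SpD against IBA and 10 lower in the cold. Of all genes, in either direction, 2.94%, 0.288%, 1.57%, 1.41%, 3.38% and 20% were called in these comparisons, in the same order. Counts without a share of all genes, such as those with array weights or with single animals omitted, are not set against other genes. The causes were not tested.

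When single animals were omitted, the counts ran from 25 to 41 across states (1 to 8 at q under 0.001), 16 to 31 lower and 0 to 6 higher in hibernation, 9 to 30 for IBA against LAr, 7 to 27 lower and 0 to 7 higher in the cold, 2 to 10 for Ent against IBA, 4 to 13 for IBA against SA, 5 to 12 for SpD against IBA, 0 to 8 for SA against SpD, 0 to 1 for LAr against EAr and 0 to 0 for EAr against Ent.

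Of 71 calls of named genes, 1 reversed, MMP7 between IBA and SpD, which was 0.30 within experiment 2. A common median, a robust prior, no intensity trend and the mean of a symbol's rows changed none of the 71, though with the mean of both FBLN5 rows 10 members were called between IBA and SpD in place of 9. With all 31 animals 27 of the 71 were lost, and within experiment 2 29 were. At q under 0.01 35 of the 71 were lost. With only the compared groups fitted 30 of 47 were lost, and within experiment 1 11 of 13. No paired analysis was possible because each sample came from a different animal. Depth is unknown, so counting error could not be separated from the spread between animals.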

Other observations

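K154 (EAr) was high in interstitial genes. It read 10.12 for COL1A1 against 8.88 to 9.38 in the other EAr animals, 9.93 for COL3A1 against 8.80 to 9.19 and 10.95 for FN1 against 10.08 to 10.33. FABP4, the only 1 of 4 adipocyte markers with values here, read 12.24 in K154 against 6.93 to 8.20. The others, ADIPOQ, PLIN1 and LEP, had no values. Its part in those values was not tested.

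K8 was the lowest Ent animal in 59 of the 84 genes, with 8.29 for COL1A1 against 8.93 to 9.77, 9.77 for FN1 against 10.33 to 10.67, 11.50 for COL4A1 against 12.66 to 12.81 and 12.03 for LAMB2 against 12.78 to 12.95 in the other Ent animals.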
